A study of Danio rerio with 4 samples.

Results

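The zebrafish genes cd74b, isg15, psmb9a and irf1b, which belong to the interferon response and to antigen presentation, were followed in 2 populations of kidney cells. They were taken by symbol from the platform annotation, where each had 1 probe set of its own, so that 4 of 8793 annotated genes and 4 of 15502 probe sets are described. The genes had been picked for the size of their difference between the same populations, and their differences are therefore given as a description, with no test. Both populations were sorted from adult kidney, the blood-forming organ of this fish, within a flow cytometry gate of low forward and low side scatter that holds lymphoid cells. The zSP group is the side population, the cells that stain dimly with the DNA dye Hoechst. The zMP group is the main population, the remaining cells of the same gate on the Hoechst profile. In total 20 fish went into 3 sorts, the lysates of each population were combined, and each combined RNA was divided between 2 arrays. The sources used here give no strain, sex or treatment. The arrays of a population repeat amplification, labelling and hybridization of 1 RNA, so the gap between them is technical, and no measure of variation between fish exists.

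Interferons are cytokines that cells release on viral infection. Their receptors act through Janus kinases and STAT factors, and interferon regulatory factors carry the signal on to a broad set of antiviral genes. The same signal raises antigen presentation: the immunoproteasome cuts cytosolic proteins into peptides, the class I pathway loads them in the endoplasmic reticulum, and the class II pathway, guarded by the invariant chain CD74, loads peptides made by endosomal proteases. In mammals IRF1 is an activator of several of these genes, the immunoproteasome subunit PSMB9 among them. Class II molecules and their invariant chain are made mainly by B cells, macrophages and dendritic cells.

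Values are log2 expression after robust multi-array averaging, and a difference is the zSP mean minus the zMP mean on that scale. The range printed after a difference spans the 4 pairs of a zSP with a zMP array. A gene was called higher in a population when all 4 pairs pointed the same way and reached 1 on the log2 scale, a 2-fold change. A blank range, with a top at 6.15, was set by 49 control probe sets that zebrafish RNA should not bind, and a group mean in that range leaves the presence of a transcript unshown. Without the reporter control that sets this top it would lie at 5.24. The median difference of all genes was -0.20, and it was 0.0024 after cyclic loess, so that values near -0.20 sit at the middle of these arrays. Of the blank controls, 48 of 49 were lower in zSP. Between its 3′ and 5′ control probe sets, the GAPDH signal dropped off by 3.83 and 4.06 on the zSP arrays against 3.03 and 3.15 on the zMP arrays, which measures how far copies were shortened. The part of these array differences in the results below was not tested.

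Of the 4 genes, irf1b was called higher in zSP, as were 7.85% of all genes, and cd74b, isg15 and psmb9a were called higher in zMP, as were 2.89% of all genes. These shares stand beside the members for scale alone, because the members were chosen on this contrast, and they are the scale for every count over a list of genes given below. Among the 1892 genes with both group means above the blank range the shares were close to each other, at 6.82% higher in zSP and 6.61% higher in zMP. A call by this rule already requires that the zSP and zMP arrays do not overlap, so the lack of overlap is no further result. In bulk RNA fewer cells of a type and less RNA per cell cannot be told apart.

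**Figure D1:**
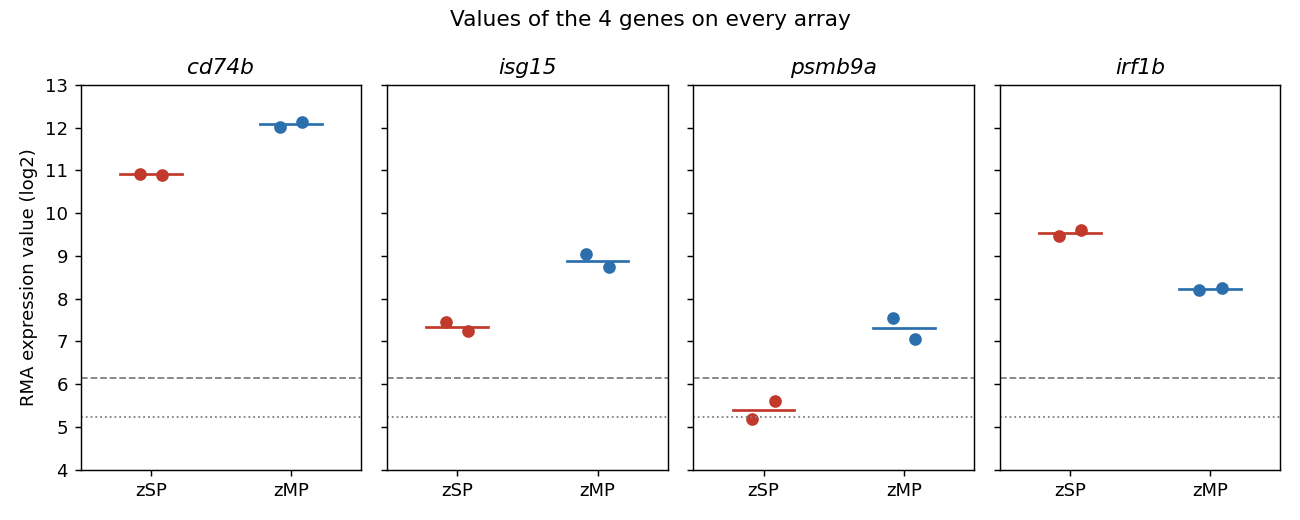
Log2 expression value (vertical axis) of cd74b, isg15, psmb9a and irf1b on each array, with zSP in red and zMP in blue. Points are arrays, bars are group means, the dashed line at 6.15 is the top of the blank range and the dotted line at 5.24 is that top without the reporter control. The cd74b, isg15 and psmb9a values are lower on both zSP arrays than on both zMP arrays, irf1b is higher on both, and psmb9a in zSP is the one group mean under the dashed line.

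The invariant chain gene cd74b was among the brightest probe sets of the arrays and was lower in zSP. Its values were 10.92 and 10.90 on the zSP arrays against 12.02 and 12.14 on the zMP arrays. The difference was -1.17 (-1.24 to -1.10), a level 2.25-fold lower in zSP, and both zSP values lay more than 1 below both zMP values. The aliquots of a pool differed by 0.021 in zSP and 0.12 in zMP. Under other normalizations the call ended: the difference was -1.09 with each array centred on its median, -0.92 after a second quantile normalization and -0.74 after cyclic loess. Of the 74 genes with a mean level within 0.5 of that of cd74b, 24.3% were called higher in zMP and the median difference was -0.61, so a shift of this direction was common at that brightness.

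The second invariant chain gene, cd74a, stood just outside the rule. It had 11.33 and 11.56 on the zSP arrays against 12.35 and 12.45 on the zMP arrays, a difference of -0.96 (-1.12 to -0.79). Without zSP replicate 2 it would have been called, at -1.07. The cd74a difference shrank to -0.55 after a second quantile normalization and to -0.50 after cyclic loess. Both copies of the invariant chain were thus bright in both pools, with lower values on every zSP array.

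Of 4 measured genes in the list of class II chains, invariant chains and regulators, cd74b was called and 3 were not, and the list median was -0.70. That median was -0.44 after a second quantile normalization and -0.31 after cyclic loess, and the list then held no call, nor did it after median centring. The class II beta chain mhc2dcb had both means within the blank range, at a difference of -0.44 (-0.48 to -0.40). The regulatory factor X subunit rfxap, a part of the complex that binds class II promoters, stood at 0.42 (-0.01 to 0.85), also within that range. The transactivator ciita was not analysed here. Outside all the lists, 17 measured genes had symbols that open like those of listed families. Some of them, such as irf2bp1, are not members of the family their symbol opens with. Of the 17, none was called higher in zSP, 3 were called higher in zMP and 14 were not called. The 3, picked after their values were seen, were the class II chain genes mhc2daa and mhc2d4b and the interferon-inducible ifi27.2. The alpha chain gene mhc2daa had 7.78 and 7.28 on the zSP arrays against 9.004 and 9.74 on the zMP arrays. Its difference of -1.84 (-2.46 to -1.23) was larger than that of either invariant chain gene, and stayed called at -1.66 after cyclic loess. The gene mhc2d4b, with neither mean above 6.15, differed by -1.49 (-1.94 to -1.04), and its call ended at -1.30 after cyclic loess and at -1.41 after median centring.

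Some proteases that act in the endosome were called in the direction opposite to cd74b, and others were not. Of 10 measured genes in this list, 3 were called towards zSP and none towards zMP, against 7.85% and 2.89% of all genes, and the list median was 0.84 against -0.20 for all genes. The asparaginyl protease lgmn had 7.28 and 7.24 on the zSP arrays against 4.64 and 3.10 on the zMP arrays, a difference of 3.40 (2.60 to 4.19). The aspartic protease ctsd differed by 3.36 (2.70 to 4.01) and the cysteine protease ctsla by 2.36 (1.81 to 2.91). The zMP means of lgmn and ctsd lay within the blank range, so that their sizes stand against background fluorescence. The cysteine protease ctsl.1, picked after its values were seen, lay within the blank range and stood at -0.84 (-0.98 to -0.70). The cathepsin S genes, whose mammalian relative trims the invariant chain, were not called: ctss2.1 stood at -0.28 (-0.45 to -0.10), ctss2.2 at -0.53 (-0.63 to -0.44) and ctss1, within the blank range, at 0.09 (-0.46 to 0.64). The lysosomal thiol reductase gene ifi30a, an interferon-inducible gene in mammals, had 8.95 and 9.80 on the zSP arrays against 7.80 and 8.06 on the zMP arrays, and its difference of 1.44 (0.89 to 2.00) missed the rule on a single pair. In this list 3 of the 10 genes were lower in zSP. Among the genes named here that lay above the blank range in both pools, ctss2.1 and ctss2.2 were lower in zSP, while ctsla and ifi30a were higher. Not every gene of the list is named here.

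The ubiquitin-like modifier gene isg15, which interferon induces and whose product is joined to other proteins, was lower in zSP. It had 7.45 and 7.24 on the zSP arrays against 9.05 and 8.73 on the zMP arrays. The difference was -1.55 (-1.82 to -1.28), a level 2.92-fold lower in zSP, with all values above the blank range. It stayed called at -1.40 after cyclic loess and at -1.65 after a second quantile normalization, and a call at 3-fold was not reached. Of 490 genes within 0.5 of its mean level, 9.59% were called higher in zMP, and 2.63% of all 8793 genes had a lower difference than isg15.

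The other listed interferon-stimulated genes were not called. Of 18 measured members of that list, none was called higher in zSP, isg15 was called higher in zMP and 17 were not called. By means alone, 2 passed 2-fold towards zSP, ifi30a at 1.44 and isg20 at 1.04, the latter with a zMP mean within the blank range. Towards zMP there were 2, isg15 at -1.55 and ifi35 at -1.03. The list median was -0.33 against -0.20 for all genes, and it was -0.099 after cyclic loess and -0.026 without zSP replicate 2. Only 8 of the 18 exceeded the blank range in at least 1 pool. The antiviral GTPase mxa, a gene strongly induced by interferon, was within that range on every array, with 2.64 and 2.79 on the zSP arrays against 3.01 and 3.05 on the zMP arrays. Outside the list and picked after its values were seen, ifi27.2, a gene of the small interferon-inducible ISG12 family, had 8.05 and 7.99 on the zSP arrays against 10.38 and 10.22 on the zMP arrays. That difference, -2.28 (-2.39 to -2.17), exceeded that of isg15, and it was -2.03 after cyclic loess. Its relative ifi27.1 differed by -0.38 (-0.61 to -0.15) and was not called.

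Enzymes that could attach or remove the modifier were not called. In the list of ISG15 conjugation and related ubiquitin enzymes, isg15 alone of 7 members was called, and the median was -0.41, or -0.15 after cyclic loess and -0.19 without zMP replicate 1. The activating enzyme gene uba7 had both means within the blank range, with a difference of -0.20 (-0.59 to 0.18), which turned to 0.085 after cyclic loess. The ubiquitin-activating enzyme uba1 stood at -0.41 (-0.52 to -0.31). The protease gene usp18 and the conjugating enzyme gene ube2l6 were not analysed here.

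The transcription factor gene irf1b differed from the other members in direction. It had 9.47 and 9.61 on the zSP arrays against 8.20 and 8.25 on the zMP arrays. The difference was 1.31 (1.21 to 1.42), a level 2.48-fold higher in zSP, with all values well above the blank range. Both aliquots of a pool lay close together, 0.15 apart in zSP and 0.057 apart in zMP. After cyclic loess the difference was 1.54, and the call at 2-fold held under each normalization run and with any 1 array left out. Its probe set carries the suffix that marks several transcripts of 1 gene. Among 310 genes within 0.5 of its mean level, 11.6% were called higher in zSP, and 10.6% of all genes had a higher difference.

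Within the family of interferon regulatory factors, 2 of 6 measured genes were called higher in zSP, none was called higher in zMP, and 4 were not called, against 7.85% and 2.89% of all genes. The list median of 0.27 turned to -0.34 over the 3 genes with a mean above the blank range. The second called gene was irf2a, with 5.81 and 6.27 on the zSP arrays against 4.60 and 4.14 on the zMP arrays and a difference of 1.67 (1.21 to 2.13), although both means lay within the blank range. The sister gene irf1a was within that range on every array, at 2.83 and 2.96 on the zSP arrays against 3.65 and 3.19 on the zMP arrays. Its difference was -0.53 (-0.82 to -0.24), so that irf1b was the copy with a transcript shown to be present. The antiviral factor irf7 was bright in both pools, with 9.04 and 8.31 on the zSP arrays against 8.84 and 9.19 on the zMP arrays, and its groups overlapped (-0.34, -0.88 to 0.20). The gene irf5, a factor of Toll-like receptor signalling picked after its values were seen, had 3.99 and 5.98 on the zSP arrays against 7.12 and 5.77 on the zMP arrays. Its groups overlapped, at -1.46 (-3.12 to 0.21), and the list held 1 call towards zMP by means alone, without zSP replicate 2 or without zMP replicate 2. The STAT partner irf9 had a difference of 0.88 (0.56 to 1.21) within the blank range. The genes irf2 and irf8 were not analysed here.

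Upstream of these factors the signalling genes moved in both directions. Of 8 measured genes of the Janus kinase pathway and its brakes, socs1a was called higher in zSP, jak2a was called higher in zMP, and 6 were not called. The inhibitor socs1a, a feedback brake on interferon receptors, had 7.85 and 8.19 on the zSP arrays against 5.51 and 5.50 on the zMP arrays. Its difference was 2.52 (2.34 to 2.70), with a zMP mean within the blank range. The kinase jak2a, which in mammals serves the type II interferon receptor and other cytokine receptors, had 6.64 and 6.54 on the zSP arrays against 8.71 and 8.54 on the zMP arrays. Its difference was -2.03 (-2.17 to -1.90), and all 4 values lay above the blank range. Both calls held under cyclic loess, at 2.58 for socs1a and -1.92 for jak2a.

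The measured interferon and receptor genes had no mean above the blank range. The list held 4 measured genes, the type I interferon ifnphi1 and the receptor genes crfb1, crfb4 and ifngr2, and none was called. The largest differences were -0.97 (-2.58 to 0.63) for crfb4, which was 0.063 without zSP replicate 1, and -0.63 (-0.89 to -0.38) for ifnphi1. Among 4 virus-sensing genes none was called, the adaptor mavs standing at 0.46 (-0.51 to 1.42) and the kinase tbk1 at -0.42 (-0.81 to -0.03). The genes stat1a and stat1b were not analysed here.

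**Figure D2:**
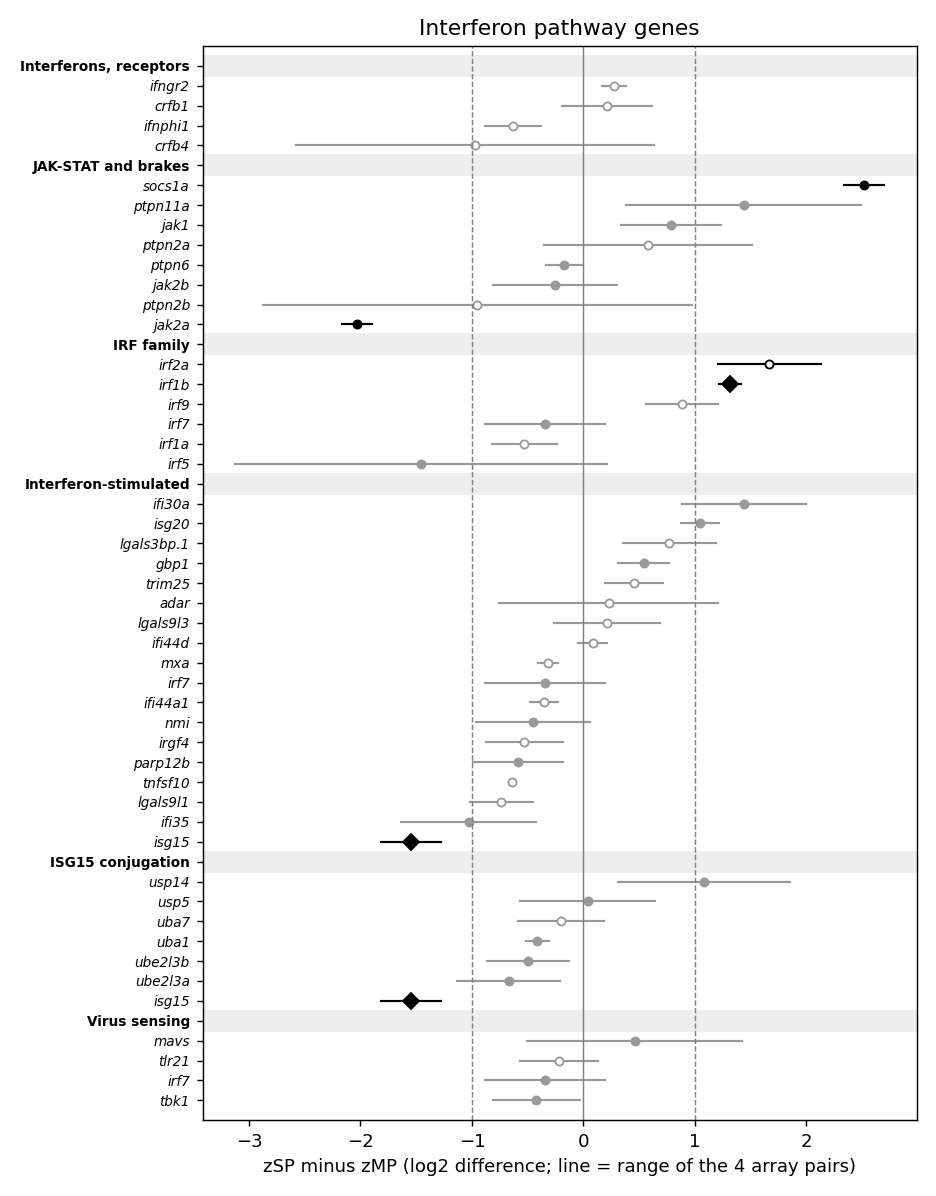
Difference between zSP and zMP (horizontal axis, log2) for every measured gene of 6 interferon pathway lists, where points are differences of means and lines span the 4 array pairs. Diamonds are the member genes, black marks are called genes, grey marks are not called, open marks have both means within the blank range, and dashed lines mark 2-fold. The called genes are socs1a, irf2a and irf1b on the zSP side and jak2a and isg15 on the zMP side, and the interferon and receptor genes are all open.

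The immunoproteasome subunit gene psmb9a, which replaces the caspase-like subunit of the standard proteasome when interferon acts, had the largest difference of the members. It had 5.19 and 5.62 on the zSP arrays against 7.55 and 7.07 on the zMP arrays. The difference was -1.91 (-2.36 to -1.45), a level 3.75-fold lower in zSP, and 1.22% of all genes had a lower difference. The zSP mean lay within the blank range up to 6.15 and above its top without the reporter control, so that the size stands partly against background. The aliquots lay 0.43 apart in zSP and 0.48 apart in zMP, and leaving out 1 array at a time gave differences of -2.15 to -1.67. Of 979 genes within 0.5 of its mean level, 4.09% were called higher in zMP.

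Other immunoproteasome subunits were not called, and psmb9a was 1 of 5 measured. The chymotrypsin-like subunit psmb8a had 6.36 and 6.35 on the zSP arrays against 6.19 and 6.55 on the zMP arrays, with a difference of -0.02 (-0.20 to 0.17) that was 0.029 after cyclic loess. The trypsin-like subunit psmb10 differed by -0.68 (-1.12 to -0.24). The related beta subunits psmb12 and psmb13a stood at 0.26 (-0.22 to 0.75) and -0.17 (-0.79 to 0.44), and the groups of psmb8a, psmb12 and psmb13a overlapped. In the GRCz12tu gene table psmb9a overlaps psmb8a and psmb13a and has psmb12 as its nearest protein-coding neighbour on that side. Of 15 measured genes among the 10 protein-coding places on each side of psmb9a, none was called higher in zSP and 1 was called higher in zMP. That gene was daxx, a chromatin-associated protein, at -1.20 (-1.38 to -1.02), with neither mean above the blank range. Thus psmb9a was called while the subunit genes that overlap or adjoin it had overlapping groups.

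The other proteasome genes were mostly lower in zSP, mostly by amounts short of the rule. Of the standard counterparts, psmb6, which psmb9a replaces, had 7.59 and 7.40 on the zSP arrays against 8.58 and 8.45 on the zMP arrays. Its difference of -1.03 (-1.19 to -0.87) was not called, nor was that of psmb5 at -1.16 (-1.83 to -0.49) or psmb7 at 0.67 (-0.46 to 1.79). The other core subunits and their assembly factor pomp counted 12 genes, all above the blank range, with 11 lower in zSP, none called and a median of -0.83. The largest differences among them were those of psma6a at -1.25 (-2.33 to -0.16) and psma8 at -1.13 (-1.74 to -0.53). When the difference of means alone decided, 4 of these 12 passed 2-fold towards zMP, and without zSP replicate 1 there were 3. The median was -0.48 without zSP replicate 2. The interferon-inducible activator subunits psme1 and psme2 stood at -0.90 (-1.34 to -0.45) and -0.33 (-0.65 to -0.01). In the activator list, 1 of 4 members was called, psme3ip1 at -1.26 (-1.48 to -1.04), which encodes a protein that binds an activator subunit and is no subunit itself. That call was lost with the mean over its 4 probe sets, at -0.43, and after cyclic loess, at -1.14.

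The class I pathway was called in 1 gene. Of 11 measured members, pdia3 was called higher in zMP, 10 were not called, and the list median was -0.30 against -0.20 for all genes, or -0.15 and -0.46 with zSP replicates 1 and 2 left out in turn. The disulfide isomerase pdia3, a part of the peptide loading complex, had 5.66 and 4.71 on the zSP arrays against 6.97 and 6.86 on the zMP arrays. Its difference was -1.73 (-2.27 to -1.20), with a zSP mean within the blank range. The light chain gene b2m was near the top of the scale on all arrays, with 11.73 and 12.02 on the zSP arrays against 12.05 and 12.09 on the zMP arrays. Its difference of -0.20 (-0.36 to -0.03) was close to the median of all genes, -0.20, and it turned to 0.23 after a second quantile normalization and 0.27 after cyclic loess. The class I chains mhc1ufa and mhc1zba differed by -0.12 (-0.59 to 0.35) and -0.26 (-0.56 to 0.04), and their groups overlapped. The peptide transporter gene tap1 was not analysed here, while tapbp.1, which encodes tapasin, stood at -1.04 (-1.89 to -0.19) and was not called.

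**Figure D3:**
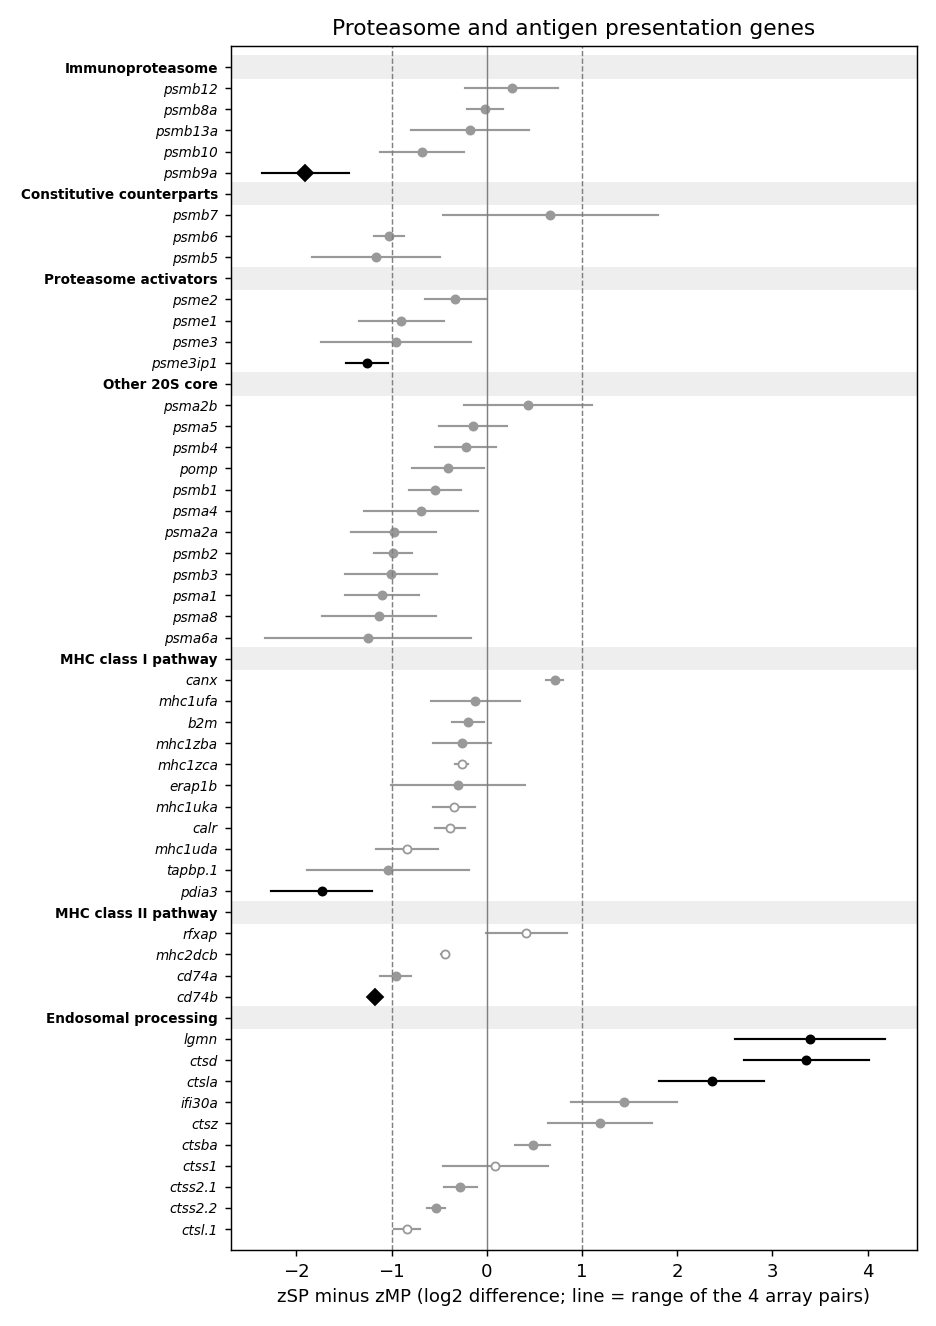
Difference between zSP and zMP (horizontal axis, log2) for every measured gene of 7 proteasome and antigen presentation lists, with points for differences of means and lines for the range of the 4 array pairs. Diamonds are the member genes, black marks are called genes, grey marks are not called, open marks have both means within the blank range, and dashed lines mark 2-fold. The called genes lgmn, ctsd and ctsla lie on the zSP side and psmb9a, psme3ip1, pdia3 and cd74b on the zMP side.

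Over all 13 lists, 92 different genes were measured, of which 63 exceeded the blank range in at least 1 pool. Of the 92, 6 were called higher in zSP, 6 were called higher in zMP, and 80 were not called, against 7.85% and 2.89% of all genes, with a median of -0.33 against -0.20 for all genes. These counts are given for scale alone, because they include the members chosen on this contrast, irf1b towards zSP and cd74b, isg15 and psmb9a towards zMP. The 6 on the zSP side were irf1b, irf2a, socs1a, lgmn, ctsd and ctsla. Those on the zMP side were cd74b, isg15, psmb9a, jak2a, pdia3 and psme3ip1. With cyclic loess 7 calls were towards zSP and 4 towards zMP, and the median was -0.12. Leaving out 1 array leaves 2 pairs to pass the rule, and calls towards zSP and zMP then numbered 9 and 12 without either zSP replicate, 7 and 9 without zMP replicate 1, and 10 and 11 without zMP replicate 2. With 1 particular array left out, psmb5, psmb6, psmb10, psme1, psma6a, psma8, cd74a and crfb4 were each called higher in zMP. The same held for psmb7 towards zSP. These genes had been named by a fixed rule. Other listed genes gained calls in either direction, such as ifi30a towards zSP and psma1 towards zMP without zSP replicate 1.

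Some markers of leukocytes were called in the same direction as cd74b, isg15 and psmb9a. Of 9 measured pan-leukocyte genes, none was called higher in zSP, 3 were called higher in zMP and 6 were not called, against 7.85% and 2.89% of all genes, and the median was -1.30. The myeloid and B cell factor spi1b did not separate the groups, at -0.014 (-0.096 to 0.067). The mean level of these 9 was 8.005 and 8.18 on the zSP arrays against 9.23 and 9.42 on the zMP arrays. With 1 array left out 3 to 6 of the 9 were called. The called genes included the actin regulator coro1a at -2.02 (-1.09, short of the rule, as the mean over its probe sets) and wasb, an actin nucleation gene, at -1.50. The leukocyte phosphatase ptprc stood at -0.64 (-0.68 to -0.60). The part of leukocyte content in the differences of the members was not tested.

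Markers of the cells known for class II expression gave no single direction. Of 5 macrophage and dendritic cell genes, 2 were called higher in zSP and 3 were not called. The called genes were the scavenger receptor marco at 1.60 (1.28 to 1.92) and the granulin grna.1 at 2.77 (2.66 to 2.89). Not called were c1qc at 1.80 (0.84 to 2.76), spi1b at -0.014 and csf1ra, within the blank range, at -0.35 (-0.47 to -0.22). The mean level of the list was 7.40 and 7.57 on the zSP arrays against 6.26 and 6.39 on the zMP arrays. The zMP mean of marco, 5.57, lay within the blank range. None of 6 B lineage genes was called and only btk, a kinase of B and myeloid cells, had a mean above the blank range. Its difference was 0.72 (0.57 to 0.87), higher in zSP, while the list median was -0.42. The B cell factor pax5 was within that range, with a difference of -0.34 (-1.22 to 0.55). Of 4 T and NK genes, nkl.4 and cd28 were called higher in zMP, at -4.53 (-5.74 to -3.32) and -1.45 (-1.56 to -1.35), and nkl.4 alone had a mean above the blank range. Other listed markers, such as cd79a, ighm, cd8a and lck, were not analysed here. Defining markers of B and T cells were therefore either not measured or not shown to be present on these probe sets.

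Many listed markers of cells outside the lymphoid label were called higher in zSP. Which cells these transcripts came from was not tested. Among all genes the calls were 7.85% towards zSP and 2.89% towards zMP. In the epithelial and kidney tubule list 11 of 15 had calls towards zSP, and the mean level was 7.72 and 7.57 on the zSP arrays against 3.97 and 3.90 on the zMP arrays. The cadherin gene cdh17 of this list was called at 4.11 (4.03 to 4.19), with a zMP mean within the blank range. The kidney transporter and transcription factor genes of the list were less uniform, all with both means within the blank range. Of these, slc13a1, pax2a and hnf1bb were called towards zSP, while slc12a3 at -0.93 and pax8 at -0.78 were lower in zSP and not called. In the stroma and endothelium list 8 of 11 were called higher in zSP, with mean levels of 7.59 and 7.42 on the zSP arrays against 4.71 and 4.77 on the zMP arrays. Among 9 neutrophil genes, 4 were called towards zSP and 1 towards zMP, and among 7 thrombocyte genes 3 were called towards zSP. Of 7 erythroid genes the globin hbaa1 was called higher in zMP at -4.24. Some of the called genes had both means within the blank range. Above it, calls towards zSP were 8 of 8 epithelial, 5 of 7 stromal, 4 of 8 neutrophil and 1 of 3 thrombocyte genes. Of these called genes, krt8, cav1 and mmp13a exceeded the range in both pools. The other called genes above it passed through the zSP mean alone, so these counts depend largely on that filter. Of the genes above it that were not called, col1a1a passed through the zSP mean alone. The rest, lyz, cpa5, ncf1, cebpa, itga2b, apln and fli1, exceeded the range in both pools. The part of these cells in the values of irf1b, the proteases and the other members was not tested.

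**Figure D4:**
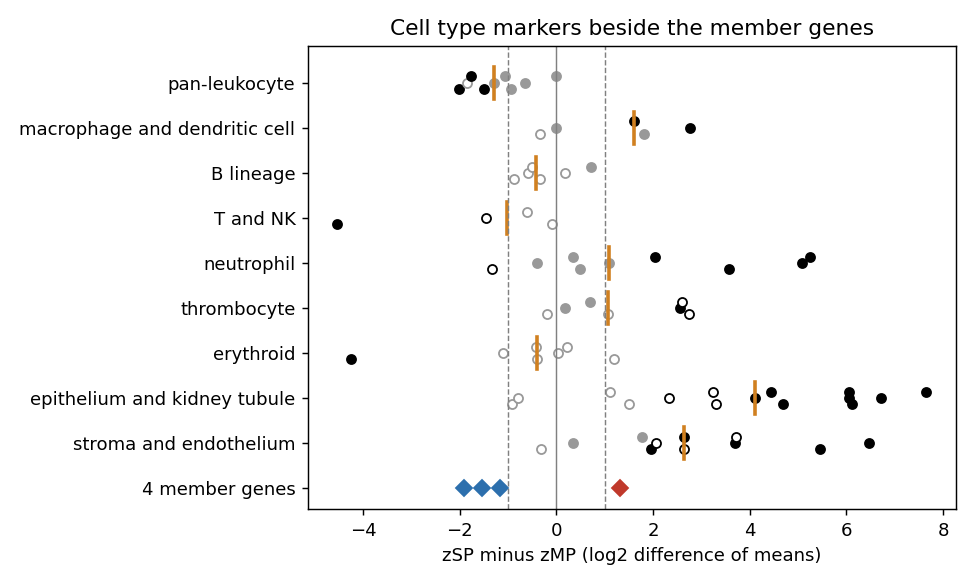
Difference between zSP and zMP (horizontal axis, log2) of each measured marker gene in 9 cell type lists, with the 4 member genes in the lowest line. Circles are genes, black when called, grey when not, open when both means lie within the blank range, orange bars are list medians, and dashed lines mark 2-fold. The pan-leukocyte genes lie at or below 0 with a median of -1.30. The B lineage, T and NK and erythroid medians also lie below 0, as do cd74b, isg15 and psmb9a (blue diamonds). Most genes of those lists are open, and btk, the B lineage gene that is not open, lies above 0. The macrophage and dendritic cell, neutrophil, thrombocyte, epithelial and stromal medians lie above 0, as does irf1b (red diamond).

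Likeness to each member was measured as the distance between the 4 mean-centred array values, over genes with a group mean above the blank range. The 3 genes nearest to cd74b among 2794 were the ribosomal protein gene rpl11 at a distance of 0.10 log2 units, the translation initiation factor gene eif1axb at 0.10 and the actin nucleation gene actr3 at 0.12. Nearest to isg15 were the respiratory chain gene cox7b at 0.071, the splicing gene snu13b at 0.11 and the ribosomal protein gene rpl35 at 0.18. Nearest to psmb9a were antxr2a at 0.094, prpsap2 at 0.18 and arhgdig of the pan-leukocyte list at 0.22. Nearest to irf1b were the peroxiredoxin gene prdx1 at 0.081, the casein kinase gene csnk1db at 0.12 and the splicing cofactor gene srrm2 at 0.13.

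None of these 12 belonged to the interferon or antigen presentation lists. The closest pair of members was cd74b with isg15, at 0.51, and many other genes lay nearer to each. Counted by distance, isg15 took place 283 for cd74b, and cd74b took place 112 for isg15. With 4 arrays such distances describe little beyond the size of the difference and the gaps between aliquots.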

How the data were processed

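An Affymetrix zebrafish array with 15617 probe sets was used. The deposited values are on the log2 scale and, per the submitters' processing notes, come from RMA as run by affy, with no version or setting stated. RMA equalizes the arrays' distributions, so differences are relative to all probe sets. Per the labels, RNA was amplified by 2 rounds of in vitro transcription, which favours 3′ ends. All 4 columns were used unchanged, without the 115 control probe sets. No coordinates are printed and no sequences were used.

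Of the remaining probe sets, 10795 had 1 gene, 135 several and 4572 none. Symbols were updated through gene identifiers (8723 of 8796 found) in the GRCz12tu gene table, used for names and for which genes overlap or adjoin psmb9a. A gene is its probe set with the highest mean. The 4 members and all lists were chosen with earlier results of these data known. Of the list symbols, 161 matched directly, 7 as older symbols and 195 had no probe set of their own; 1 symbol, an older name of an RNA polymerase subunit, was dropped from the T cell list.

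With 1 RNA pool per population no test was made, and a rule of size (all 4 pairs at least 2-fold) replaced it. A check of the code on simulated data used shifts far larger than the members' differences and independent noise on each array. That check says nothing of how the rule performs at differences of their size or of variation between pools. Named genes were the members, up to 4 called genes per list or the 2 largest differences, fixed relatives of the members, and the 3 most similar genes. Other genes, such as mxa, uba1, ifi30a, mhc1ufa, mhc1zba and ifi27.1, were named with the values known, and only some are marked as picked later. Alternatives were other sizes, means alone, other normalizations, filters, probe set rules and each array left out, in Python 3.11.15 and R 4.3.3 with limma 3.58.1 for cyclic loess. Having 2 arrays per pool limits the precision.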

Additional observations from a re-analysis of the deposited data

How the results depend on the processing

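The members kept their direction under all alternatives run. Their calls at 2-fold held except for cd74b, whose difference was -1.09 after median centring, -0.92 after a second quantile normalization and -0.74 after cyclic loess, all short of the rule, and except that without shared-sequence probe sets irf1b was not measured. At 3-fold none of the 4 was called. Cyclic loess moved irf1b to 1.54 by more than the spread between aliquots. With 1 array left out the differences ranged from -1.23 to -1.11 for cd74b, -1.71 to -1.39 for isg15, 1.24 to 1.39 for irf1b and -2.15 to -1.67 for psmb9a. The background moved more: genes called higher in zSP numbered 690, with 396 at 3-fold, 1245 by means alone and 969 to 1097 with 1 array left out, while genes called higher in zMP numbered 254, with 849 at 1.5-fold, 61 at 3-fold, 811 by means alone, 166 after cyclic loess and 532 to 591 with 1 array left out. For the counts of called genes in the lists, 282 of 338 recomputed values stayed within 1.5 times, and 56 did not. The cause of these changes was not tested, apart from the size rule itself and the 2 pairs that remain when an array is left out. No paired analysis was possible because the comparison came from no test: the shared replicate numbers only name aliquots of separate RNA pools. Signal over background limits psmb9a in zSP and the 29 of 92 pathway genes with neither mean above the blank range.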
